A study of Mus musculus with 4 samples.

Results

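Histone cluster genes encode the core histones H2A, H2B, H3 and H4 and the linker histone H1, and were taken here as the gene symbols that start with Hist1h, Hist2h, Hist3h or Hist4h and are listed in every library. The rule found 9 such symbols among the 34968 symbols that all 4 libraries share. They are the H2A genes Hist1h2al, Hist1h2an, Hist1h2ao and Hist1h2ap, the H2B genes Hist1h2bp, Hist1h2bq and Hist1h2br, and the H4 genes Hist1h4m and Hist1h4n. The libraries numbered replicate 1 list 70 cluster histone symbols, whereas those numbered replicate 2 list only these 9 and carry the rest under current names such as H2ac8 or H2bu2. The 61 renamed genes were each matched to a single current symbol through RefSeq synonyms and are described after the 9, under the older names. The symbol list changes with the replicate number, so an effect of the underlying gene annotation and a difference between replicate numbers cannot be told apart.

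Most cluster histone genes are replication-dependent: they are transcribed in S phase to package newly made DNA. Their messenger RNAs usually end in a short stem-loop, which the stem-loop binding protein Slbp holds, in place of a poly-A tail. Some cluster genes also give polyadenylated transcripts, particularly in cells that have left the cell cycle, and a poly-A pull-down recovers RNA with a tail.

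The libraries are bulk RNA-seq of tdTomato+ neurons sorted from embryoid bodies of mouse embryonic stem (ES) cell lines on day 12 of differentiation, with 2 libraries for each of 2 lines. Both lines come from 1 parental line of a Dlx6a-Cre; Ai9 embryo (strain label C57/BL6), in which cells that have expressed the Dlx6a-Cre driver turn on tdTomato, and both were cultured with XAV-939, a Wnt inhibitor, and SAG, a sonic hedgehog agonist. The N/D line carries Nkx2-1 with a tetracycline transactivator under a Nestin promoter and a transactivator-responsive Dlx2, and the N/D/S line carries the same with St18 beside Dlx2. ES colonies were picked as clones, so line and clone cannot be told apart, and the labels do not say whether libraries of a line came from separate differentiations, so p-values measure only the spread between these libraries.

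The values are TPM (a transcript level scaled to transcript length and to the library total), and sequencing depth cannot be read from them. St18, the gene added in N/D/S, was at 44.4 TPM (replicate 1) and 15.9 TPM (replicate 2) under the N/D/S label, against 28.5 and 26.6 TPM under the N/D label. It did not separate the lines, and every direction below rests on the labels. All 11 genes of a list for forebrain GABA neurons were above 0 in every library, with sums from 3699 to 5678 TPM. Tubb3 and Stmn2, general neuronal genes, were the highest of this list in every library, so the sums do not show a GABA identity. The library labelled N/D replicate 1 stood apart, with 13426 genes above 0 against 17118 to 20750 in the others, and it lists at 0 a total of 613 of 6139 genes that reached 10 TPM in all others. Fewer cells of a type and less RNA per cell cannot be told apart in bulk samples.

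On the mouse genome (GRCm38, GENCODE annotation), 8 of the 9 genes lie within 50705 bases at chr13:21786826-21837530. The H2A and H2B genes form 3 pairs that are transcribed away from each other, Hist1h2an with Hist1h2bp, Hist1h2bq with Hist1h2ao, and Hist1h2ap with Hist1h2br, with 242, 267 and 235 bases between the annotated starts. The block reads as a near mirror image, and Hist1h2bq, Hist1h2ao and Hist1h4m face Hist1h2br, Hist1h2ap and Hist1h4n. Hist1h2al lies apart, at chr13:51202727-51203065 on the minus strand, and is annotated as a processed pseudogene.

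The start of the coding sequence shows how alike these copies are, which bears on every value per gene. The first 120 coding bases of Hist1h2ap (chr13:21833356-21833475, minus strand), of Hist1h2an (chr13:21787099-21787218, minus strand) and the matching 105 bases of Hist1h2al are given 5′ to 3′, with capitals where the base differs from Hist1h2ap:
Hist1h2ap: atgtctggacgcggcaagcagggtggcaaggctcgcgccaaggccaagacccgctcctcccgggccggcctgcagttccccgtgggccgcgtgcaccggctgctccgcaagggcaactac
Hist1h2an: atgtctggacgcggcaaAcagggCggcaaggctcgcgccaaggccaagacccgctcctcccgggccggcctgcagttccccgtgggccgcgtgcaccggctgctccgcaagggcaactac
Hist1h2al: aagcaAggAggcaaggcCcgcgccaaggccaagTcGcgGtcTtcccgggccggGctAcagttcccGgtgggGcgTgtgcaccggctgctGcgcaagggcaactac

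Hist1h2ao was identical to Hist1h2ap over all 393 coding bases. Hist1h2an differed from it at 5 of 393 coding bases, and the pseudogene Hist1h2al at 25 of its 339 bases. Hist1h4m and Hist1h4n had the same 312 coding bases. The H2B copies split in another way, with Hist1h2bq and Hist1h2br alike and both differing from Hist1h2bp at 6 of 381 coding bases. The first 120 coding bases of Hist1h2bp (chr13:21787515-21787634, plus strand) and Hist1h2br (chr13:21833771-21833890, plus strand) carry 5 of these differences, in capitals:
Hist1h2bp: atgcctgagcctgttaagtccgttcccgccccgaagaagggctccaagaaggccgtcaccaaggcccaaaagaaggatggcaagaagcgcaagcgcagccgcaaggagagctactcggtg
Hist1h2br: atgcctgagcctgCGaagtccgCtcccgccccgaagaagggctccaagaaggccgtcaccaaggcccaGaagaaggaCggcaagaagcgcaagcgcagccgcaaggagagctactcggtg

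Transcripts were assigned to genes by pseudoalignment of short sequence words. Of the 31-base words in the annotated transcripts, Hist1h2ap shared 93.4%, Hist1h2ao 93.8%, Hist1h2an 89.0%, Hist1h2al 81.9%, Hist1h4m 91.7%, Hist1h4n 87.5%, Hist1h2bq 98.3%, Hist1h2br 89.5% and Hist1h2bp 50.6% with other cluster histones. How the reads were split between such copies is therefore uncertain, and sums over mirror-image pairs are given beside single genes.

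The stem-loop was searched as an exact pattern, the letters printed below in capitals, with either base allowed where these vary. It was found in annotated transcripts of 5 of the 9 genes and of 28 of the 61 renamed genes. It is shown here for these members and for 3 abundant renamed genes, because it marks transcripts that can end without a tail. The 16 bases of the stem-loop are in capitals, with up to 7 bases on either side, in the sense of the transcript:
Hist1h2ap (chr13:21833029-21833044, minus strand): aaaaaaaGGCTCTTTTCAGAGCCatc
Hist1h2ao (chr13:21810898-21810913, plus strand): aaaaaaaGGCTCTTTTCAGAGCCatccaca
Hist1h2bp (chr13:21787923-21787938, plus strand): acacaaaGGCTCTTTTCAGAGCCacccaca
Hist1h4n (chr13:21831798-21831813, minus strand): aactaaaGGCCCTTTTCAGGGCCatccaat
Hist1h4m (chr13:21812129-21812144, plus strand): aactaaaGGCCCTTTTCAGGGCCatc
Hist1h2ae (chr13:23570668-23570683, minus strand): aaacaaaGGCTCTTTTCAGAGCCattcact
Hist1h4d (chr13:23581950-23581965, plus strand): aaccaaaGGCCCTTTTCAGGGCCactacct
Hist3h2ba (chr11:58949349-58949364, plus strand): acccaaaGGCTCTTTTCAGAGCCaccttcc

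The annotated transcript of Hist1h2ap ends 3 bases after the stem-loop and that of Hist1h4n 31 bases after it. The transcripts of Hist1h2ae, Hist1h4d and Hist3h2ba run on for 151, 770 and 169 bases. Thus the annotated transcript of the abundant Hist1h2ap stops next to the stem-loop, whereas the last 3 continue past it. No stem-loop was found in the annotated transcripts of Hist1h2al, Hist1h2an, Hist1h2bq and Hist1h2br. That of Hist1h2an ends with its coding sequence and so holds no 3′ end in which to find one.

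Hist1h2ap, an H2A gene, was assigned nearly all of the signal of the 9. Its level was 1771 TPM in replicate 1 and 10285 TPM in replicate 2 of N/D/S, against 5598 TPM in replicate 1 and 1333 TPM in replicate 2 of N/D. Thus 1 library of each line was high and 1 was low, and the lines overlapped. Pairs of values for a line are given with replicate 1 first here and below. It made up 93.6% to 98.7% of the summed TPM of the 9 symbols in each library, and 0.133% to 1.03% of all TPM. Together with its identical copy Hist1h2ao, the level was 1772, 10302, 5598 and 1340 TPM in the same order, so the pattern did not depend on the split between both copies.

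The mean level of Hist1h2ap was 6028 ± 6020.4 TPM (SD, n = 2) in N/D/S and 3465 ± 3016 TPM (SD, n = 2) in N/D. The line difference (N/D/S minus N/D) was 0.64 on the log2(TPM + 1) scale with a standard error of 1.29 (limma, Benjamini-Hochberg adjusted p = 1), smaller than the spread between libraries. The library labelled N/D/S replicate 2 had 5.81 times the level of N/D/S replicate 1. For N/D, replicate 1 had 4.199 times the level of replicate 2. Consequently, the line difference was -1.66 within replicate 1 and 2.95 within replicate 2. Its sign turned to -0.63 without N/D/S replicate 2 and to -0.39 without N/D replicate 2.

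**Figure D1:**
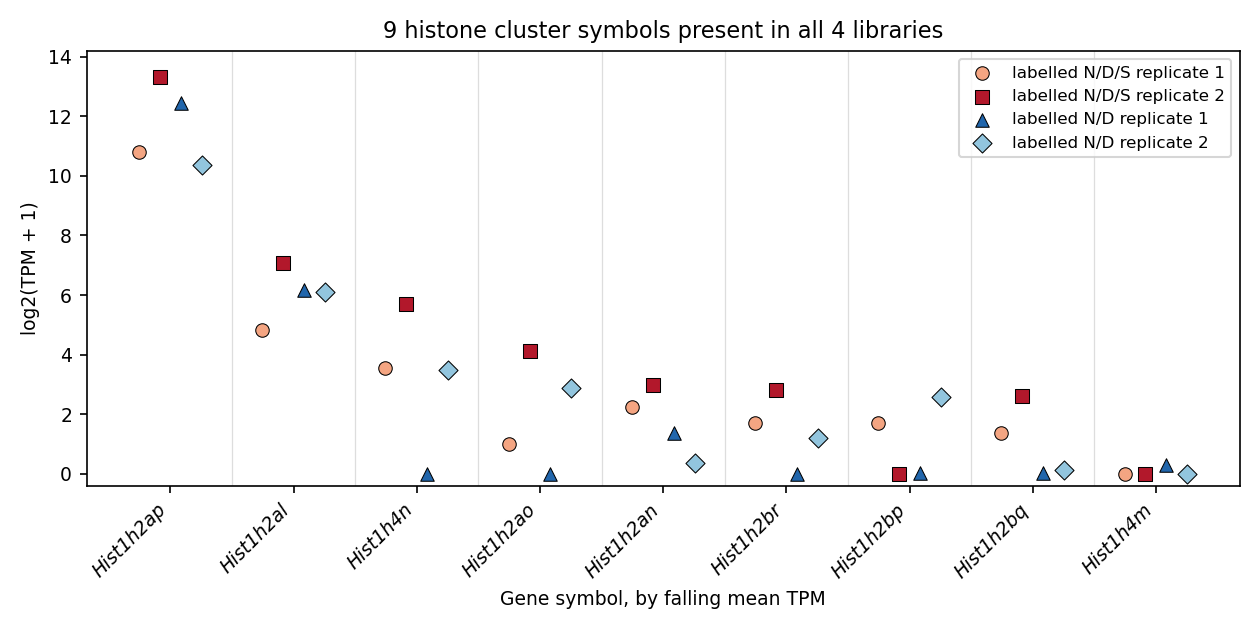
Level of each of the 9 symbols in every library, as log2(TPM + 1), with 1 point per library (orange circles N/D/S replicate 1, red squares N/D/S replicate 2, dark blue triangles N/D replicate 1, light blue diamonds N/D replicate 2). Hist1h2ap stood far above the other 8, and Hist1h4n, Hist1h2ao, Hist1h2br, Hist1h2bq and Hist1h2bp were near or at 0 in N/D replicate 1.

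The other H2A symbols were far lower. The pseudogene Hist1h2al was at 27.6 and 134 TPM for N/D/S against 71.6 and 67.9 TPM for N/D, replicate 1 first. Its highest library was again the one labelled N/D/S replicate 2, but both N/D libraries lay between those of N/D/S. Hist1h2ao, the coding twin of Hist1h2ap, was at 1.01 and 16.6 TPM for N/D/S against a listed 0 and 6.41 TPM for N/D. Hist1h2an was at 3.69 and 6.83 TPM for N/D/S against 1.56 and 0.286 TPM for N/D, so both N/D/S libraries were above both N/D libraries.

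The H2B symbols all stayed below 7 TPM in every library. Hist1h2br was at 2.24 and 6.03 TPM for N/D/S against 0.00212 and 1.30 TPM for N/D. Its mirror copy Hist1h2bq was at 1.61 and 5.09 TPM for N/D/S against 0.0242 and 0.0920 TPM for N/D. For both, the N/D/S libraries were above the N/D libraries, and their summed level was 3.86, 11.1, 0.0263 and 1.39 TPM in replicates 1 and 2 of N/D/S and replicates 1 and 2 of N/D. Hist1h2bp went another way, with 2.28 TPM and a listed 0 for N/D/S against 0.0163 and 4.96 TPM for N/D, so that it was highest in the 2 libraries in which Hist1h2ap was lowest.

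Of the H4 symbols, Hist1h4n was at 10.6 and 50.7 TPM for N/D/S against a listed 0 and 10.2 TPM for N/D. The lines did not overlap, although replicate 1 of N/D/S and replicate 2 of N/D were nearly equal. Hist1h4m, which has the same coding sequence, was listed at 0 in 3 libraries and had 0.227 TPM in N/D replicate 1. It was the only one of the 9 that missed the filter of at least 1 TPM in at least 2 libraries.

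**Figure D2:**
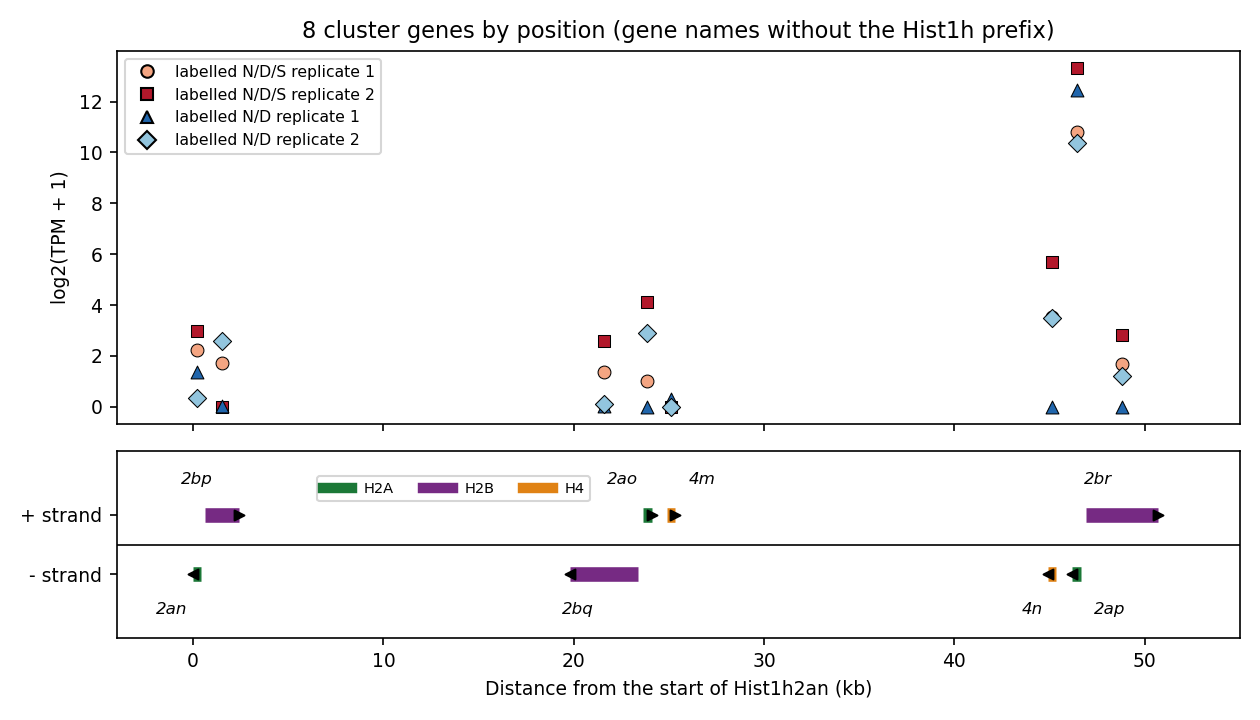
The 8 symbols of the chromosome 13 block by distance from the start of Hist1h2an in kilobases, with the level in each library above as log2(TPM + 1) and the genes below on their strand, arrowheads giving the direction of transcription. Nearly all of the signal of the block was assigned to Hist1h2ap, and its mirror copy Hist1h2ao on the opposite strand stayed at or below 16.6 TPM. The split between these copies is uncertain.

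The region between Hist1h2ap and Hist1h2br is the start of both genes. The 250 bases before the RefSeq start of Hist1h2br (GRCm38, chr13:21833493-21833742, plus strand) are printed with CCAAT or its reverse complement ATTGG in capitals:
Hist1h2br: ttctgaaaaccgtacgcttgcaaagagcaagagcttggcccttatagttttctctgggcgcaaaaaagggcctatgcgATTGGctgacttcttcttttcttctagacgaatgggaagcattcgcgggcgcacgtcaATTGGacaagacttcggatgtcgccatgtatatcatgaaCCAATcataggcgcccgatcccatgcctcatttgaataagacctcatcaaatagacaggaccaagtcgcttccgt

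The RefSeq promoter of Hist1h2bq was identical to that of Hist1h2br over all 300 bases of the table (250 before the start and 50 after it), and those of Hist1h4m and Hist1h4n matched at 298 of 299 aligned bases. Hist1h2ap and Hist1h2ao, whose RefSeq starts differ, shared 200 identical bases. Hist1h2ao has only 28 words of 31 bases of its own, so its level beside that of Hist1h2ap is not a separate measurement of this copy. The promoter of Hist1h4n (chr13:21832198-21832447, minus strand) is shown for contrast with TATAAA in capitals, since it holds no CCAAT:
Hist1h4n: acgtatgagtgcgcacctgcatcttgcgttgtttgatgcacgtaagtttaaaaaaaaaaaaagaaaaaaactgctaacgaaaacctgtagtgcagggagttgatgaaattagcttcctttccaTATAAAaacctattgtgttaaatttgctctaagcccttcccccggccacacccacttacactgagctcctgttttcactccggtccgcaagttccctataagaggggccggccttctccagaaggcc

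A RefSeq promoter was found for 8 of the 9 symbols and 62 of the 70 genes. On either strand, CCAAT was present in all 6 H2A and H2B promoters among the 8, against 37.4% of 32851 RefSeq promoters of the same length. These 6 are not separate sequences. The windows of each pair transcribed away from each other overlap, and those of Hist1h2bq and Hist1h2br are identical. Over all 70 genes, CCAAT was present in each H1, H2A, H2B and H3 promoter found and in 25% of the H4 promoters. TATAAA, the core letters of a TATA element, was present in 4 of the 8 (Hist1h2an, Hist1h2bp, Hist1h4m and Hist1h4n) against 13.6% of all promoters. Of these, the windows of Hist1h2an and Hist1h2bp overlap, and those of Hist1h4m and Hist1h4n are nearly identical. The octamer ATTTGCAT was in none of the 8, in 38.9% of the H2A and 41.2% of the H2B promoters over the 70 genes (both starts of Hist1h2be counted), and in 1.7% of all promoters. AAACACA, the letters of the H1 box, was in 83.3% of H1 promoters, in none of the 8, and in 7.2% of all. These matches describe the letters of the window only.

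The line comparison asked whether adding St18 changed these transcripts. Among the 12975 genes tested, 0 passed an adjusted p of 0.05 by limma with Benjamini-Hochberg adjustment, and 8 (0.0617%) had an unadjusted p under 0.05, none of them a cluster histone. With 2 libraries against 2, an exact two-sided permutation test of a single gene cannot go below 0.333. The median line difference of the 8 tested symbols was 1.39 on the log2(TPM + 1) scale, against 0.26 over all genes tested. Leaving out replicate 1 or replicate 2 of N/D/S gave 2.16 and 0.75. It was 2.55 with a pseudocount of 0.1 and 0.23 over the 2 symbols that reached 1 TPM in every library. Both N/D/S libraries were above both N/D libraries for 4 of the 8 (Hist1h4n, Hist1h2bq, Hist1h2an and Hist1h2br), a separation that 8.69% of all genes tested also showed, and for 0 of the 8 were both below, against 8.23% of all genes. The count above was 7 without N/D/S replicate 1, against 19.3% of all genes in that fit, and 1 with quantile normalization, against 14.3%. It was 0 among the 2 symbols at 1 TPM or more in every library, against 6.53%.

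The largest of these line differences was 2.87 for Hist1h4n, with a standard error of 1.45 (limma adjusted p = 1). It was followed by 1.92 for Hist1h2bq, 1.74 for Hist1h2an and 1.65 for Hist1h2br, with standard errors from 1.01 to 1.05, none past the threshold. Of the 4 genes that did not overlap, 3 stayed under 0.5 TPM in N/D replicate 1, and Hist1h2bq passed the filter through N/D/S alone, so it had to differ. With 1 library left out at a time, the difference of Hist1h4n ranged from 1.13 to 4.62. The highest was without N/D replicate 2, which leaves N/D replicate 1 as the lone N/D library, assumed to vary like the others.

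Comparing replicate 1 with replicate 2 over both lines, 0 genes passed the adjusted threshold (limma, Benjamini-Hochberg) and 260 (2%) had an unadjusted p under 0.05, 1 of them a cluster histone. The median difference (replicate 1 minus replicate 2) of the 8 symbols was -0.87 against -0.25 over all genes. Leaving out replicate 2 of N/D/S gave -0.47, and leaving out that of N/D gave -1.80. Hist1h2ao was lower in both replicate 1 libraries than in both replicate 2 libraries, with a difference of -3.01, a standard error of 0.90 and an adjusted p of 0.976 by limma. It was 1 of 8 symbols with that separation, against 14.7% of all genes. Leaving out replicate 1 or replicate 2 of N/D/S gave 4 and 2 of 8, against 58.6% and 33.7% of all genes, and leaving out those of N/D gave 2 and 7, against 20.1% and 21.1%. It was 2 with median-of-ratios scaling (20.2% of all genes), 3 with upper quartile scaling (22%) and 2 with quantile normalization (19.4%). In the main comparison 0 of 8 showed the opposite, against 14.8%. Without N/D/S replicate 1, which leaves N/D replicate 1 alone for its number, the difference was -3.51 for Hist1h2ao and -4.59 for Hist1h4n.

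The 61 renamed genes add the H1 and H3 families, which the 9 lack. Over all 70 genes, 6 encode H1, 20 H2A, 19 H2B, 12 H3 and 13 H4. H2A and H2B dominated: the 20 H2A genes summed to 2356 and 11552 TPM for N/D/S and to 6590 and 1902 TPM for N/D, replicate 1 first, and the 19 H2B genes to 2130, 3570, 2805 and 2545 TPM in the same order. H4 summed to 138, 507, 380 and 125 TPM and H1 to 126, 544, 192 and 129 TPM, H4 being above H1 in the replicate 1 libraries and below it in the replicate 2 libraries. H3 summed to 47.9, 113, 32.2 and 49.1 TPM. The H2A, H2B, H4 and H1 sums were highest in replicate 2 of N/D/S and in replicate 1 of N/D, and H3 was highest in the former and lowest in the latter.

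**Figure D3:**
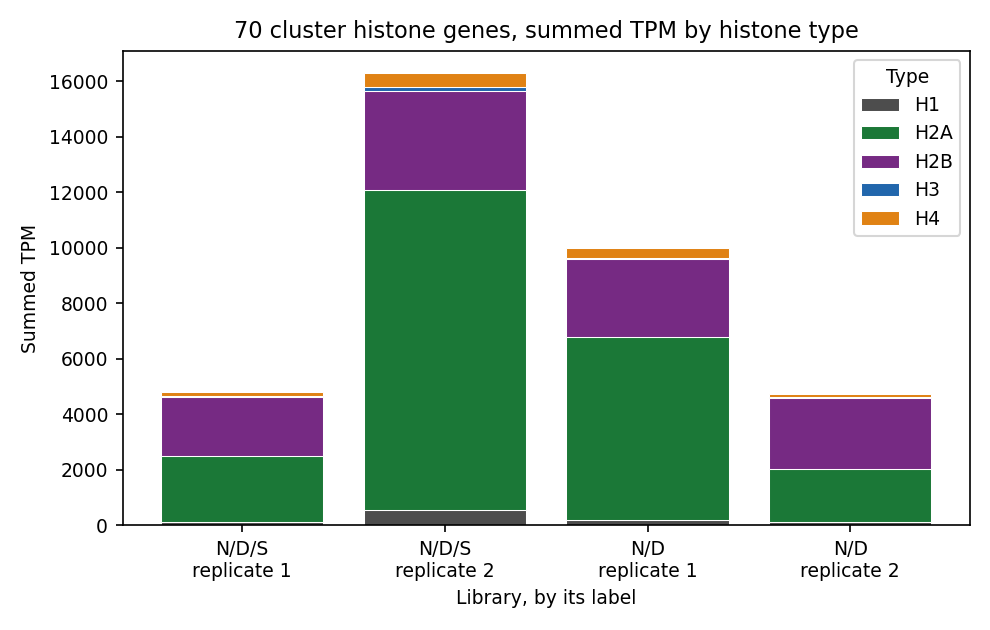
Summed TPM of the 70 cluster histone genes in each library, stacked by histone type, from 0. The totals for replicate 1 and 2 were 4797 and 16285.5 TPM for N/D/S against 9998 and 4749 TPM for N/D, and H2A accounted for most of the difference between them.

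Hist3h2ba, an H2B gene of the third cluster, had the second highest mean level of the 70, and was above Hist1h2ap in replicate 1 of N/D/S and replicate 2 of N/D. Its level was 2003 and 3414 TPM for N/D/S against 2578 and 2331 TPM for N/D. It varied by only 1.70-fold between its highest and lowest library, against 7.72-fold for Hist1h2ap. The 2 genes together made up 77.2% to 84.1% of all cluster histone TPM. The line difference of Hist3h2ba was 0.09 with a standard error of 0.98, and the lines overlapped.

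Reads of several renamed genes could also be split in more than 1 way. Hist2h2aa1 and Hist2h2aa2 have no 31-base word of their own in the annotation, so the level of the former and the listed 0 of the latter are not separate measurements, and Hist1h2ai and Hist1h3i shared 92% and 93.2% of their words with other cluster histones. Among the H2A genes, Hist1h2ae was at 206 and 551 TPM for N/D/S against 591 and 93.2 TPM for N/D. Hist2h2aa1, from the second cluster, was at 84.2 and 251 TPM for N/D/S against 186 and 138 TPM for N/D, and Hist1h2ai was at 27.2 and 84.4 TPM for N/D/S against 57.5 and 26.2 TPM for N/D. In each of these 3, replicate 2 of N/D/S and replicate 1 of N/D were the 2 highest libraries, as for Hist1h2ap. Hist3h2a, which lies in the third cluster with Hist3h2ba, ran the other way, with 193 and 105 TPM for N/D/S against 72.1 and 211 TPM for N/D.

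The H1 genes Hist1h1e and Hist1h1b encode linker histones, which bind the DNA between nucleosomes. Hist1h1e was at 49.6 and 336 TPM for N/D/S against 150 and 48.4 TPM for N/D, and Hist1h1b was at 23.8 and 145 TPM for N/D/S against 32.9 and 15.5 TPM for N/D. Both were highest in N/D/S replicate 2. The H4 gene Hist1h4d was at 67.0 and 354 TPM for N/D/S against 321 and 30.9 TPM for N/D, an 11.5-fold range with the same 2 libraries high. Hist1h4i, also H4, had 29.9, 27.7, 58.4 and 27.5 TPM in the same order and was near equal in all but N/D replicate 1.

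Hist1h1c, Hist1h2bc and Hist2h2be are cluster histones known to give polyadenylated transcripts. Hist1h2bc was at 89.0 and 113 TPM for N/D/S against 223 and 166 TPM for N/D. It was the only one of the 58 tested cluster histones for which both N/D/S libraries lay below both N/D libraries, and its line difference of -0.94 had a standard error of 0.97 (limma adjusted p = 1). Hist1h1c was at 45.7 and 41.6 TPM for N/D/S against 0.0596 and 62.0 TPM for N/D, so that 3 libraries were close and N/D replicate 1 was near 0. Hist2h2be stayed low, at 0.690 and 1.53 TPM for N/D/S against a listed 0 and 1.57 TPM for N/D.

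The single H3 gene among the 12 highest renamed genes, Hist1h3i, was at 17.1 and 72.5 TPM for N/D/S against 0.0861 and 11.4 TPM for N/D. Both N/D/S libraries were above both N/D libraries, and its line difference of 3.31 with a standard error of 1.44 (limma adjusted p = 1) was the largest of the 58. With 1 library left out at a time, the difference of Hist1h3i ranged from 1.56 to 5.07. Without N/D replicate 2, which leaves N/D replicate 1 alone for its line, it was 5.07 for Hist1h3i and 5.396 for Hist1h1c. Without N/D replicate 1 the difference of Hist1h1c was -0.50.

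**Figure D4:**
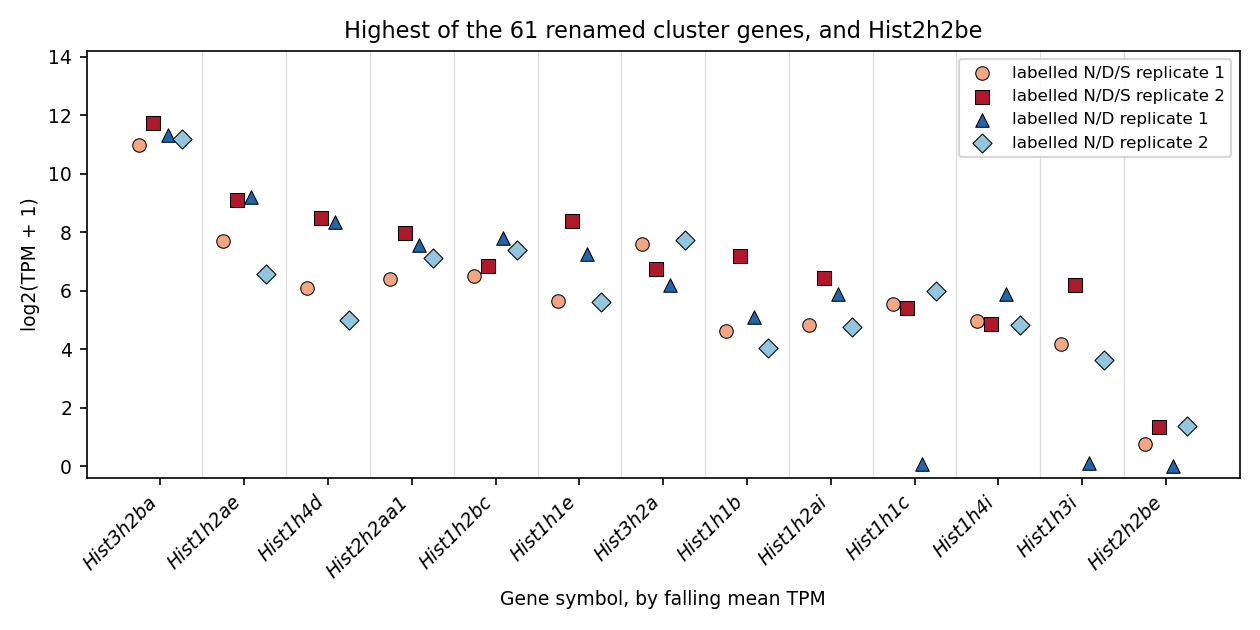
Level of the 12 renamed genes with the highest mean TPM, and of Hist2h2be, in every library as log2(TPM + 1), with the same symbols as in the plot of the 9 (orange circles N/D/S replicate 1, red squares N/D/S replicate 2, dark blue triangles N/D replicate 1, light blue diamonds N/D replicate 2). Hist1h2ae, Hist1h4d, Hist1h1e and Hist1h2ai show the 2 high libraries of Hist1h2ap, Hist3h2a shows the reverse, and Hist1h1c and Hist1h3i are near 0 in N/D replicate 1.

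With the renamed symbols joined, 13039 genes were tested, 58 of them cluster histones, and 12 cluster histones did not pass the filter, 3 of them listed at 0 in every library (Hist1h1t, Hist1h2ba and Hist2h2aa2). By limma with Benjamini-Hochberg adjustment, 0 genes passed in either comparison, against 9 (0.069%) and 260 (1.99%) at an unadjusted p under 0.05, of which 1 in each was a cluster histone (Hist1h2ab by line, Hist1h2ao by replicate number). The median line difference was 0.85 over the 58 against 0.26 over all genes. Leaving out replicate 1 or replicate 2 of N/D/S gave 1.33 and 0.43, and leaving out replicate 1 of N/D gave 0.18. It was 0.25 over the 14 genes that reached 1 TPM in every library. By type it was 1.19 for H1, 0.58 for H2A, 0.56 for H2B, 1.27 for H3 and 0.75 for H4. The median difference between replicate numbers was -0.92 against -0.25 over all genes and -0.45 without N/D replicate 1, and it lay below 0 for every type, from -0.56 for H2A to -1.33 for H3.

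Both N/D/S libraries were above both N/D libraries for 13 of the 58 genes, or 22.4%, against 8.71% of all genes tested, and below for 1, or 1.72%, against 8.2%. Of those 13, Hist1h2bq, Hist1h2bf and Hist2h2ac passed the filter through N/D/S alone and had to differ, which leaves 10 of 55. The 8.71% of all genes with this separation was not corrected in the same way. Of the 13, 11 stayed under 0.5 TPM in N/D replicate 1. None of the 14 cluster histones at 1 TPM or more in every library showed either this separation or the lower level in both replicate 1 libraries given next. Hist1h2ab was at 21.3 and 46.0 TPM for N/D/S against 0.474 and 6.89 TPM for N/D, with the lowest p of the 58 in this comparison (0.0289 unadjusted, limma adjusted p = 1). These counts moved with each library left out, when a single library stands for 1 side. Leaving out replicate 1 or replicate 2 of N/D/S gave 35 and 16 of 58 above, against 19.5% and 42.7% of all genes. Leaving out replicate 1 or replicate 2 of N/D gave 24 and 36, against 13.4% and 56.8%. Those below were 6 (31%), 5 (13.6%), 16 (31.9%) and 5 (22.9%) in the same order.

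In replicate 1, both libraries were below both of replicate 2 for 16 of the 58 genes, against 14.7% of all genes, and above for 2 (Hist1h4i and Hist3h2bb-ps), against 14.7%. Of the 16, Hist1h1d, Hist1h2aj, Hist1h3b, Hist1h4b and Hist2h2be passed the filter through the replicate 2 libraries alone and had to differ. That leaves 11 of 53, and the 14.7% of all genes was not corrected in the same way. All 16 had under 0.5 TPM in N/D replicate 1. With each library left out in the order used above, those lower in replicate 1 were 35 (58.6%), 26 (33.7%), 21 (20.2%) and 38 (21.3%) of 58, with the share of all genes in brackets, and those higher were 6 (25.1%), 14 (17.8%), 6 (49.4%) and 6 (31.4%).

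Zeros in N/D replicate 1 included cluster histones. Of 38 cluster histones that reached 1 TPM in the 3 remaining libraries, N/D replicate 1 has 16 at 0, or 42.1% against 22% of all genes chosen in this way, and 24 under 0.5 TPM, or 63.2% against 34.7%. The median level over the 70 genes was 2.26, 4.81, 0.0397 and 2.91 TPM in replicates 1 and 2 of N/D/S and replicates 1 and 2 of N/D. Thus, the library with the second highest sum had the lowest median. The part of these zeros in the comparisons was not tested beyond the fits without the library.

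To set the zeros aside, genes were taken by their lowest library. In all, 12 cluster histones had at least 10 TPM in every library, and for 9 of them replicate 2 of N/D/S and replicate 1 of N/D were the 2 highest libraries. That order was found for 14% of the 4593 genes at this level. Without a floor on the level it held for 2 of the 8 tested symbols against 6.05% of all genes, and for 14 of the 58 cluster histones against 6.14%. The reverse, with the other 2 libraries highest, held for 1 of the 8 against 47.6% and for 12 of the 58 against 47.5%. The 9 were Hist1h2ap, Hist3h2ba, Hist1h2ae, Hist1h4d, Hist2h2aa1, Hist1h1e, Hist1h2al, Hist1h1b and Hist1h2ai, and the others were Hist1h2bc, Hist3h2a and Hist1h4i. A stem-loop is annotated for 7 of the 12. The order was noticed in these data and described here without a test.

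Taken within the replicate numbers, the line difference of the cluster histones was above 0 for 41 of the 58 in replicate 1, against 72.5% of all genes, and for 39 of the 58 in replicate 2, against 25.4%. Within replicate 2, N/D/S was above N/D by more than 1 log2 unit for 27 of the 58 cluster histones, against 2.8% of all genes tested, and below by more than 1 for 10, against 33.6%. Within replicate 1 the counts were 33, against 52.7%, and 11, against 9.32%. Above 1 in replicate 1 and below -1 in replicate 2 were 10 of the 58, against 20.9% of all genes, and the opposite held for 7, against 0.56%. Hist1h4d, one of the 7, had -2.24 within replicate 1 and 3.48 within replicate 2, each a single library against a single library.

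**Figure D5:**
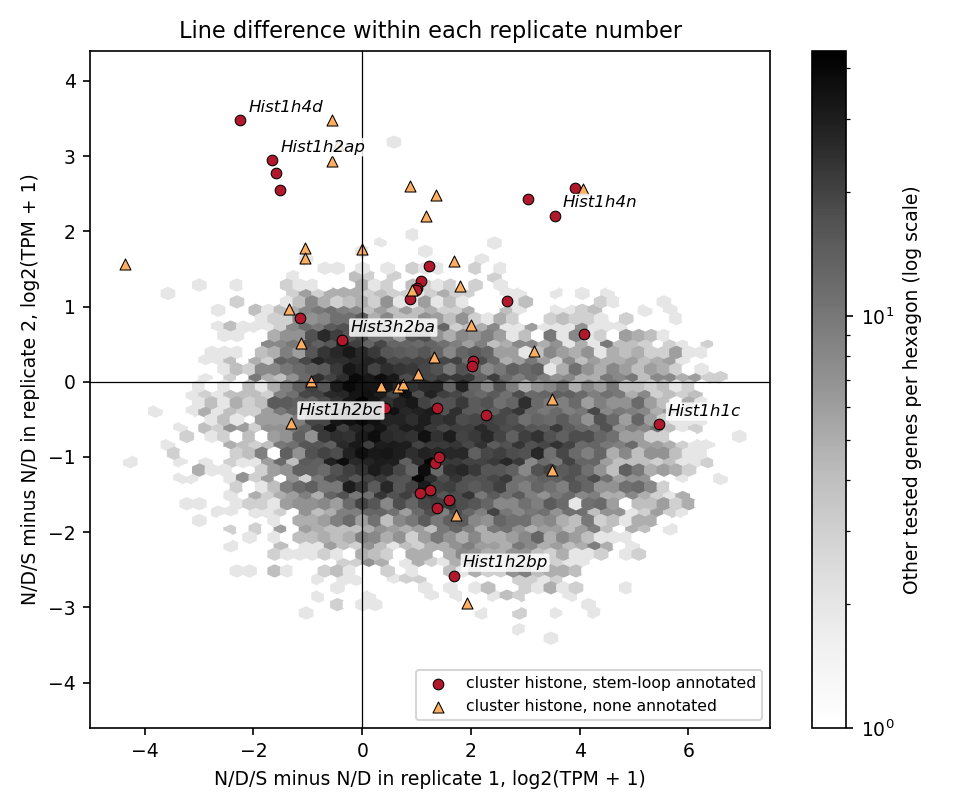
Line difference (N/D/S minus N/D, on the log2(TPM + 1) scale) within replicate 1 on the horizontal axis and within replicate 2 on the vertical axis, with other tested genes as grey hexagons on a log scale of number, cluster histones with an annotated stem-loop as red circles and those without as orange triangles. Most grey genes lie right of 0 and below 0, whereas 27 of 58 cluster histones lie above 1 on the vertical axis, with Hist1h4d at -2.24 and 3.48 and Hist1h2ap at -1.66 and 2.95.

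Genes with and without an annotated stem-loop had the same 2 highest libraries in their sums. Of the 37 without one, 13 have annotated transcripts that end with the coding sequence and 3 have no coding transcript, so a missing stem-loop can be a missing annotation. A stem-loop with letters other than the exact pattern searched would also be counted as missing. The 33 genes with one summed to 4511 and 15595 TPM for N/D/S against 9499 and 4368 TPM for N/D, and the 37 without to 286, 690, 499 and 381 TPM. The level in N/D/S replicate 2 was 3.46 and 2.41 times that in N/D/S replicate 1 for the genes with and without a stem-loop, and that in N/D replicate 1 was 2.17 and 1.31 times that in N/D replicate 2. The median line difference was 0.64 for the 29 tested genes with a stem-loop and 0.88 for the 29 without. Likewise, the 42 tested single-exon genes of at most 1000 bases had a median of 1.09 and the other 16 one of 0.44.

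Short transcripts outside the clusters had the same 2 highest libraries, with smaller ratios. Over 320 other tested genes with a longest transcript of at most 500 bases, the summed level in N/D/S replicate 2 was 1.66 times that in N/D/S replicate 1, and that in N/D replicate 1 was 1.28 times that in N/D replicate 2. Over the 7221 genes of the longest of 4 length classes, the same ratios were 0.619 and 0.802. The corresponding ratios for the 70 cluster histones were 3.39 and 2.11, and without Hist1h2ap and Hist3h2ba 2.53 and 1.68. The part of transcript length in the histone values was not tested.

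The summed level of genes that act on histone RNA had another order of libraries. Slbp, which binds the stem-loop, was at 78.5 and 58.4 TPM for N/D/S against 111 and 98.1 TPM for N/D, and Npat, the activator of cluster histone transcription, was at 5.70 and 0.745 TPM for N/D/S against a listed 0 and 4.84 TPM for N/D. Lsm11, a subunit of the U7 particle that cuts histone precursors, was at 23.8 and 7.53 TPM for N/D/S against 43.3 and 17.02 TPM for N/D. Lsm10, another subunit of that particle, was at 79.3 and 117 TPM for N/D/S against 112 and 84.99 TPM for N/D, with the same 2 highest libraries as Hist1h2ap. Of the 11 genes for transcription and 3′ end processing of histone RNA, 0 passed the test in either direction, and the median line difference was -0.02. Their sum was lowest in replicate 2 of N/D/S, at 298 TPM, against 424 to 439 TPM in the others, whereas the cluster histones were highest there.

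Histones encoded outside the clusters, most of which give polyadenylated RNA, had sums that varied less. Their 11 genes summed to 9406 and 8176 TPM for N/D/S against 8826 and 10225 TPM for N/D. Single genes among them varied more: Cenpa, the centromeric H3, was listed at 0 in N/D replicate 1 and was between 27.9 and 55.7 TPM in the other libraries. H3f3a, the H3.3 gene with the highest level, was at 4014 and 3202.5 TPM for N/D/S against 4912 and 4464.5 TPM for N/D. H2afz, the H2A.Z gene, was at 939 and 1318 TPM for N/D/S against 939 and 1128 TPM for N/D. None of the 11 passed in either comparison, and their median line difference was 0.09. Both replicate 1 libraries were below both of replicate 2 for 5 of the 11, against 14.7% of all genes. Of 10 histone chaperones, which carry histones to DNA, 0 passed, with a median of 0.04.

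The summed level of S phase genes also had another order of libraries than the cluster histones. The 18 S phase and cycling genes summed to 405 and 396 TPM for N/D/S against 272 and 701 TPM for N/D, so that N/D replicate 2 was highest and N/D replicate 1, with 5 of the 18 listed at 0, was lowest. Pcna, the clamp of the DNA polymerase, was at 72.5 and 67.5 TPM for N/D/S against 60.97 and 106 TPM for N/D. Ccne1 and E2f1 had the same 2 highest libraries as Hist1h2ap, at 9.10 and 16.7 TPM for N/D/S against 21.4 and 9.70 TPM for N/D and at 2.36 and 8.18 TPM against 10.1 and 3.82 TPM. Of the 18, 0 passed in either comparison, and the median line difference was 0.10. Both N/D/S libraries were below both N/D libraries for 4 of the 18 (Mcm2, Mcm4, Tyms and Top2a), against 8.2% of all genes, and above for 0, against 8.71%. Of these genes, 5 of 18 were lower in both replicate 1 libraries, against 14.7% of all genes.

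Markers of other cells had their 2 highest sums in the replicate 2 libraries, and no gene of these lists passed the test. The 6 pluripotency genes summed to 3.96 and 293 TPM for N/D/S against 0.253 and 185 TPM for N/D, with Dppa5a the highest in 3 libraries and 4 of 6 listed at 0 in N/D replicate 1. The 8 glial genes summed to 17.9 and 67.3 TPM for N/D/S against 0 and 204 TPM for N/D, all 8 listed at 0 in N/D replicate 1. Both replicate 1 libraries were below both of replicate 2 for 4 of 4 tested pluripotency genes and 6 of 6 tested glial genes, against 14.7% of all genes. The 8 neural progenitor genes summed to 509, 713, 463 and 1187 TPM, mostly Fabp7 in the replicate 2 libraries, and 1 of 8 was lower and 3 were higher in both replicate 1 libraries. The 10 blood, endothelial, mesoderm and endoderm genes summed to 9.05, 71.6, 38.9 and 72.4 TPM, and 4 of 6 tested were lower in both replicate 1 libraries. The part of such cells in the histone values was not tested.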

How the data were processed

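RNA was poly-A selected and sequenced as paired-end TruSeq libraries. Per the labels and the methods, the authors pseudoaligned reads with kallisto 0.44.0 and deposited 1 table per library with a TPM per gene symbol; the transcriptome release is not given in the sources used here. TPM keeps no counts, so depth is unknown and no interval is given. The sleuth step was not used here.

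Tables were joined on the symbol after 26 rows per library whose symbols had become dates were left out. The fit by limma 3.58.1 (R 4.3.3) took genes reaching 1 TPM in 2 or more of the 4 libraries, on log2(TPM + 1), and had no covariates. Benjamini-Hochberg adjustment ran over all genes fitted (threshold 0.05). A fold change on this scale understates that of low genes. The plan allowed counts or TPM, and the TPM model was used. The code was tested on simulated data. Libraries were grouped by their labels.

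Members and gene lists were chosen with earlier results of these data known. All 9 symbols were named; of the 61 renamed genes, matched through RefSeq (GRCm38.p6) synonyms after the renaming was seen, the 12 with the highest mean TPM and the known polyadenylated genes were named. Other genes were named for a count or a lowest p after their values were seen. Positions and transcripts came from GENCODE M21, promoters from RefSeq. The RNAs without a poly-A tail listed as a check (Rn7sk, Rmrp, Rpph1, Terc, Rny1 and Rny3) were not analysed here. Alternatives were pseudocounts of 0.1 and 0.5, 2 other filters, 3 scalings, a natural log, a variance trend, the replicate number as a block and each library left out. Python 3.11.15, numpy 2.4.6, pandas 2.3.3, Biopython 1.88 and matplotlib 3.10.9 were used.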

Additional observations from a re-analysis of the deposited data

Results flagged for a closer look

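For 17 of the 58 tested cluster histones the line difference (N/D/S minus N/D, log2(TPM + 1)) was above 1 in one replicate number and below -1 in the other. Each value compares a single library with a single library, and the difference between the replicate numbers was not tested. Positive in replicate 1 and negative in replicate 2 were 10 genes, or 17.2%, against 20.9% of all genes tested, and the opposite held for 7, or 12.1%, against 0.56% of all genes. The genes described above include 5 of these 7. Within replicate 1 and within replicate 2, the difference was -1.66 and 2.95 for Hist1h2ap, -1.51 and 2.55 for Hist1h2ae, and -2.24 and 3.48 for Hist1h4d. Hist1h1e had -1.58 and 2.77, and Hist1h2ai had -1.05 and 1.65. They also include 2 of the 10, Hist1h2bp with 1.69 and -2.58 and Hist3h2a with 1.41 and -1.002. The replicate 1 values all use the library labelled N/D replicate 1.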

How the results depend on the processing

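TPM keeps no depth, and 2 libraries per line limit every test. With a variance trend, 6 genes passed the line threshold and 21 the replicate threshold (6 and 20 with the renamed symbols joined); the cause was not tested. The replicate number as a block gave 0 genes by line and, with line as the block, 0 by replicate number; deviations of same-numbered libraries had r = 0.0197 over 12975 genes, and they share only a number. With a pseudocount of 0.1 the joined replicate median was -2.10.

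Signs turned under scaling for Hist1h2al (line 0.15) and Hist2h2aa1 (line 0.20) with upper quartile scaling, for Hist1h2an (replicate -0.030 with median-of-ratios, -0.15 with upper quartile) and for Hist1h2bp (replicate 0.16 with quantile normalization); the cause was not tested.

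Leaving out 1 library at a time gave 0 to 2373 genes by line and 0 to 3394 by replicate number (0 to 2381 and 0 to 3340 joined), the highest being the line fit without N/D replicate 2 and the replicate fit lacking N/D/S replicate 1. Named cluster histones that newly passed there were Hist1h4n, Hist1h3i and Hist1h1c by line, and Hist1h2ao and Hist1h4n by replicate number. None of these passed with any other library left out. Line differences ranged from -0.63 to 1.91 for Hist1h2ap, -1.31 to 0.93 for Hist1h2al, -0.43 to 2.69 for Hist1h2ao, -1.72 to 0.83 for Hist1h2bp, 1.13 to 4.62 for Hist1h4n, -0.50 to 5.396 for Hist1h1c, -0.77 to 1.96 for Hist1h1e, -0.81 to 1.84 for Hist1h2ae, -0.50 to 1.099 for Hist1h2ai, 1.56 to 5.07 for Hist1h3i, -1.05 to 2.28 for Hist1h4d, -0.996 to 0.065 for Hist1h4i, -0.92 to 0.64 for Hist2h2aa1, -0.32 to 1.05 for Hist2h2be, -0.56 to 0.97 for Hist3h2a and -0.29 to 0.48 for Hist3h2ba. Replicate differences ranged from -1.18 to 1.43 for Hist1h2an, -3.63 to -2.38 for Hist1h2ao, -1.71 to 1.24 for Hist1h2ap, -1.71 to 0.87 for Hist1h2bp, -1.90 to 0.58 for Hist1h2bq and -4.59 to -1.05 for Hist1h4n. In all, 615 alternative values of 45 results were computed, 291 of them chosen after the data were seen: 527 kept their call or stayed within the spread, 47 moved, 36 turned sign and 5 newly passed.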
